A study of Mus musculus with 39 samples.

Results

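INTACT isolates the nuclei of chosen cells by capturing nuclei that carry a tag on their membrane on antibody-coated magnetic beads. The baseline RNA profile of INTACT nuclei from the mouse neocortex was described from 13 of the 39 samples of the series, which are the INTACT nuclear RNA-seq libraries with a column in the normalised tables (4 in batch 1, 4 in batch 2 and 5 in batch 3). The libraries were chosen by isolation method alone, and no other isolation method was compared. Within each batch the genes on the autosomes were ranked by their mean normalised read count, and again after division by exon length.

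All 13 libraries came from the neocortex of adult mice of either sex that carried Arc creERT2 (TG/WT) together with a reporter at the R26 locus, CAG-Sun1-sfGFP-Myc, in 1 copy (M/WT) or 2 copies (M/M). In these mice the Arc promoter drives a Cre recombinase that works only in the presence of tamoxifen, and the recombinase switches on the tag Sun1-sfGFP-Myc at the nuclear membrane. Tamoxifen was given some hours ahead of a social interaction test, and the mice were killed days later. The tag therefore marked cells in which the Arc promoter was active around the injection, and a tagged nucleus need not have been active when it was collected. The labels name the material activated neuronal nuclei, and each RNA library was made from 10000 nuclei or 1.23 ng of RNA with a kit that removes ribosomal RNA, with 13 cycles of PCR. According to the authors each batch was a biological source of its own and the first batch had the highest RNA integrity. The SDs given here therefore measure the spread between libraries of a source and may not include the variation between animals. Source, RNA integrity and batch cannot be told apart, and the tables were normalised separately, so values of the 3 batches were set side by side and no test was made between them.

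Nuclear RNA holds transcripts that are being made or spliced and transcripts that stay in the nucleus, such as the long non-coding RNA Malat1 of the nuclear speckles and the small nucleolar RNAs (snoRNAs), most of which are cut from the introns of host genes and guide the modification of ribosomal RNA. Excitatory pyramidal neurons, which release glutamate, make up most neurons of the neocortex and share it with inhibitory interneurons, astrocytes, oligodendrocytes, microglia and vascular cells. Arc, whose promoter drives the recombinase, is an immediate early gene, a gene that neurons switch on within minutes of strong synaptic input.

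The libraries held 8621143 to 11028713 reads on genes in batch 1, 5402820 to 7033059 in batch 2 and 4944980 to 5131333 in batch 3. Reads that fell on no exon made up 71.9%, 78.1% and 82.4% of all reads on average, so the ranks below describe the smaller part of each library. Of 24421 genes in the tables, 23164 were matched to an autosomal gene of the mouse annotation, and 14462, 14274 and 13893 of these had a mean normalised count of at least 5. The row Rn45s, the precursor of ribosomal RNA, matched no gene and stayed outside the ranks. It held 5.65%, 2.75% and 2.33% of the reads on genes and would have stood at rank 1, 2 and 2. The genes of the X chromosome, which were left out, held 4.77%, 2.90% and 2.80% of the reads on genes. Xist, the transcript of the inactive X chromosome of females, alone held 1.94% in batch 1 against 0.000195% and 0.000474% in batches 2 and 3, so the sex of the mice cannot be told apart from the batch either.

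The short RNAs that lead the ranks per exon length are shown here because their length and place in a host gene bear on every value given for them. All sequences are from RefSeq for GRCm38.p6 and are written 5′ to 3′ on the strand of the gene. Snord15b (chr7:99479563-99479707, minus strand) and Snord15a (chr7:99482785-99482932, minus strand) both lie within Rps3, a gene of a ribosomal protein, and Snord17 (chr2:144265982-144266202, minus strand) lies within Snx5, all on the strand of their hosts. Capitals mark the letters TGATGA and CTGA, which are the common forms of the C and D boxes of a box C/D snoRNA.
Snord15b: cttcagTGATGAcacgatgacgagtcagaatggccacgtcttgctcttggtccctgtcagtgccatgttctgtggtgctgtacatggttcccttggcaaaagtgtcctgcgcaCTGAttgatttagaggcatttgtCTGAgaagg
Snord15a: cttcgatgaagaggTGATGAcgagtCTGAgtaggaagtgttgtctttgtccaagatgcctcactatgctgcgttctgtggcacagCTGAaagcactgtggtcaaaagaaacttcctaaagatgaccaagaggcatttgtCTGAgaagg
Snord17: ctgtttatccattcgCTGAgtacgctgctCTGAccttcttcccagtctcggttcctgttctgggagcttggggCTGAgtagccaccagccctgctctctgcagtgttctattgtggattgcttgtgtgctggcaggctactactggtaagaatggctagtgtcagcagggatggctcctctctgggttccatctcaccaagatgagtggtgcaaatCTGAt

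Snord15b held TGATGA at bases 7 to 12 and CTGA last at bases 137 to 140 of 145, and Snord15a held TGATGA at bases 15 to 20 and CTGA last at bases 140 to 143 of 148. The longest run that these sequences share is 21 bases, so a longer read matches only 1 of them in full. Snord17 held CTGA 4 times and TGATGA on neither strand. For comparison, TGATGA on either strand was found in 5.93% of 32851 RefSeq promoter windows when these were cut to 145 bases, and CTGA in 76.9%.

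Scarna13 (chr12:105031075-105031349, minus strand), a small Cajal body RNA within Snhg10, Rmrp (chr4:43492785-43493059, minus strand), the RNA of the ribonuclease MRP, and AF357359 (chr12:109650709-109650738, plus strand), a short snoRNA annotation within Rian, follow. Capitals mark a single ACA in Scarna13, the one that stands 3 bases before the 3′ end, which is the place of that box in an H/ACA RNA. The printed strand holds ACA 6 times in all, and the other matches are left in lower case. ACA on either strand is in 99.2% of promoter windows cut to 275 bases, so its presence alone says little.
Scarna13: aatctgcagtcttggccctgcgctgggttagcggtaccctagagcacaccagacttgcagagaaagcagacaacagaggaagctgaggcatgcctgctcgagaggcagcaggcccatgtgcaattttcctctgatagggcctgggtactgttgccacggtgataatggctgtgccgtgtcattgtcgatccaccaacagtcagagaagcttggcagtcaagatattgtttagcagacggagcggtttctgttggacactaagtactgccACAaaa
Rmrp: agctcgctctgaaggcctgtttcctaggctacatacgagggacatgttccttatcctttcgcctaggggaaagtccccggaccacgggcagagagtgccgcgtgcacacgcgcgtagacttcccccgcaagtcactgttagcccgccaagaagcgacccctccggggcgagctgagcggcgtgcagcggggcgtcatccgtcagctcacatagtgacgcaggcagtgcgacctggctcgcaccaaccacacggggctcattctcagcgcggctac
AF357359: atcatgacgacaaatttaattctgagatca

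Of the ranked genes, Malat1 took the most reads in all 13 libraries. Its locus (chr19:5795690-5802672, minus strand, 6983 exon bases) is that of a long non-coding RNA that is kept in the nuclear speckles, next to stores of splicing factors. The normalised count, which is the number of reads divided by the size factor of the library, was 404436, 367528, 379684 and 410990 in batch 1. It was 531081, 490813, 577103 and 561382 in batch 2, and 484573, 444855, 483780, 552482 and 490438 in batch 3. Malat1 alone held 5.95% ± 0.274 (SD, n = 4), 9.19% ± 0.584 (n = 4) and 10.1% ± 0.665 (n = 5) of the reads on ranked genes, and its share in every library of batch 1 was below that in every library of batches 2 and 3.

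Meg3 and Snhg11 stood at ranks 2 and 3 in each batch. Meg3 (chr12:109540996-109571729, plus strand) is an imprinted long non-coding RNA that is made from the maternal chromosome. Its normalised counts were 92604, 81196, 81271 and 86426 in batch 1, 109860, 106400, 128083 and 127929 in batch 2, and 104760, 102282, 106037, 125329 and 111746 in batch 3. Snhg11 (chr2:158375713-158386474, plus strand), a host gene of snoRNAs, had 80155, 81996, 80315.5 and 83034 in batch 1, 72754, 70744, 79863 and 83631 in batch 2, and 65579, 61494, 67185, 67909 and 68096 in batch 3. Per exon length their order was the reverse in every batch, since Meg3 has 12957 exon bases and Snhg11 has 6118. Together these 3 transcripts held 8.49% ± 0.328, 12.5% ± 0.844 and 13.7% ± 0.842 of the reads on ranked genes.

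The genes behind them had counts of 29099 or below in every library, against 61494 or more for Meg3 and Snhg11, as the plot of the leading genes shows. A count takes no account of length, so the order by count says where the reads lay and not which transcript was the more abundant. The 15 highest counts of the batches made up 21 genes, 11 of which were shared by all 3 batches. The shared long non-coding RNA besides the first 3 was Rian, of the same imprinted cluster as Meg3, with 23281 ± 676, 14274 ± 590 and 11737 ± 384. Among the shared coding genes, Gria2, a subunit of the AMPA type of glutamate receptor, had 19570 ± 392, 19980 ± 404 and 17267 ± 345. Dst and Macf1, giant linkers of the cytoskeleton, stood at ranks 6, 8 and 9 and at ranks 9, 13 and 11. Srrm2, a scaffold protein of the nuclear speckles, Trank1, a gene of a large ankyrin repeat protein, and R3hdm1, the host of a microRNA, completed the shared coding genes.

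**Figure D1:**
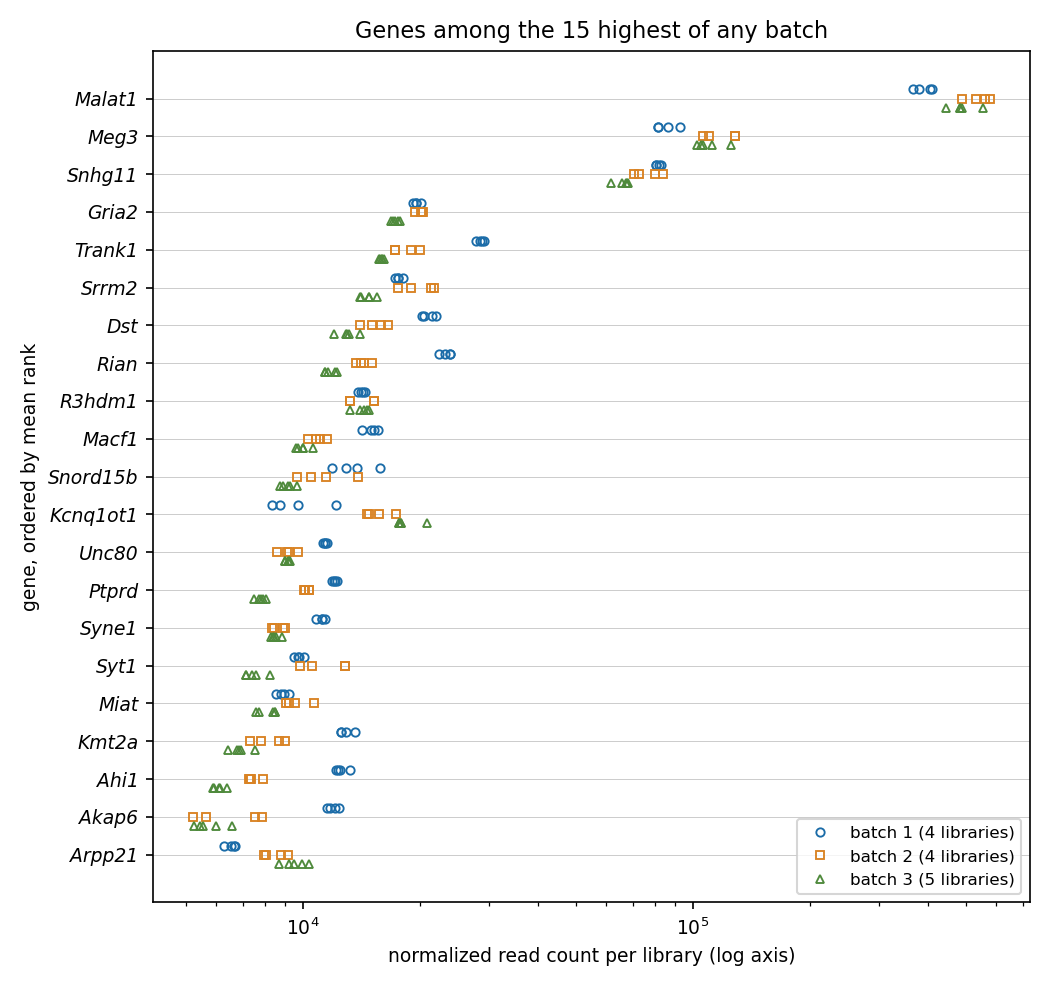
Normalised read count in each library (horizontal log axis) for the 21 genes among the 15 highest counts of any batch, ordered by mean rank from the top; each symbol is 1 library, with a symbol and colour per batch. Malat1 stands alone at 367528 to 577103, Meg3 and Snhg11 follow at 61494 to 128083, and all other genes lie at 29099 or below.

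The other 10 genes were in the 15 highest of some batches only. Kmt2a, a histone methyltransferase, Ahi1, a protein of the primary cilium, and Akap6, which anchors protein kinase A at the nuclear envelope, were in the first 15 of batch 1 alone, at ranks 12, 13 and 15, and stood at 27, 34 and 41 in batch 2. Arpp21, a phosphoprotein of cortical and striatal neurons, Unc80, a part of the NALCN sodium leak channel, and Syne1, a giant protein of the outer nuclear membrane, were in those of batch 3 alone. Kcnq1ot1 (chr7:143213111-143296547, minus strand), an imprinted antisense RNA, had counts of 12162, 9728, 8709 and 8340 in batch 1, 14593, 15685, 17269 and 14792 in batch 2, and 17808, 17665, 17586, 20852 and 17797 in batch 3. Its ranks were 26, 7 and 4. Kcnq1ot1 lies over Kcnq1 on the other strand, and how the counting treated strand is not given in the sources used here.

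A small number of genes held much of the signal. The 10 highest genes held 10.6% ± 0.322, 14.5% ± 0.907 and 15.8% ± 0.860 of the reads on ranked genes in batches 1, 2 and 3, and the 100 highest held 20.7% ± 0.314, 24.1% ± 0.732 and 25.7% ± 0.820. The 1000 highest genes held 51.0%, 53.5% and 55.4%. To reach 50% of the reads took 951 ± 13.6 genes in batch 1, 828 ± 21.2 in batch 2 and 742 ± 27.8 in batch 3, and the libraries of the batches did not overlap in this number. Without Malat1 the 100 highest of the other genes held 15.8%, 16.5% and 17.5%, a smaller difference between the batches.

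Protein-coding genes held 88.5% ± 0.298, 84.5% ± 0.837 and 83.1% ± 0.869 of the reads on ranked genes. Long non-coding RNAs, 2004 of the 23164 genes, held 10.4% ± 0.330, 14.6% ± 0.892 and 16.1% ± 0.888. With every non-coding class counted, the share was 11.2% ± 0.302, 15.3% ± 0.828 and 16.7% ± 0.869. Without Malat1, Meg3 and Snhg11, the other non-coding genes held 2.72% ± 0.0683, 2.76% ± 0.0236 and 3.00% ± 0.0433, so these 3 transcripts carried most of the non-coding share and most of its spread between batches. The snoRNAs and small Cajal body RNAs (scaRNAs) held 0.546% ± 0.0325, 0.459% ± 0.0839 and 0.432% ± 0.0249, microRNA genes 0.0742%, 0.0790% and 0.0839%, and pseudogenes 0.287%, 0.256% and 0.195%.

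Division by exon length changed this picture for the short classes. The length-scaled value of a gene was its normalised count per kilobase of exons, scaled so that the ranked genes of a library sum to 1000000 parts, and is given in ppm. On this scale the non-coding share was 27.2% ± 0.749, 27.7% ± 0.966 and 28.9% ± 0.988, and the snoRNAs and scaRNAs, 124 genes with a median length of 78 bases, held 15.0% ± 0.801, 13.4% ± 1.64 and 13.0% ± 0.736 of the signal. Genes shorter than a sequenced fragment are uncertain on this scale, because a read that only touches such a gene, or that comes from the unspliced transcript of its host, weighs as much as a read inside it. Without the 1231 genes of under 200 exon bases, the non-coding share was 13.1%, 14.6% and 16.1%.

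**Figure D2:**
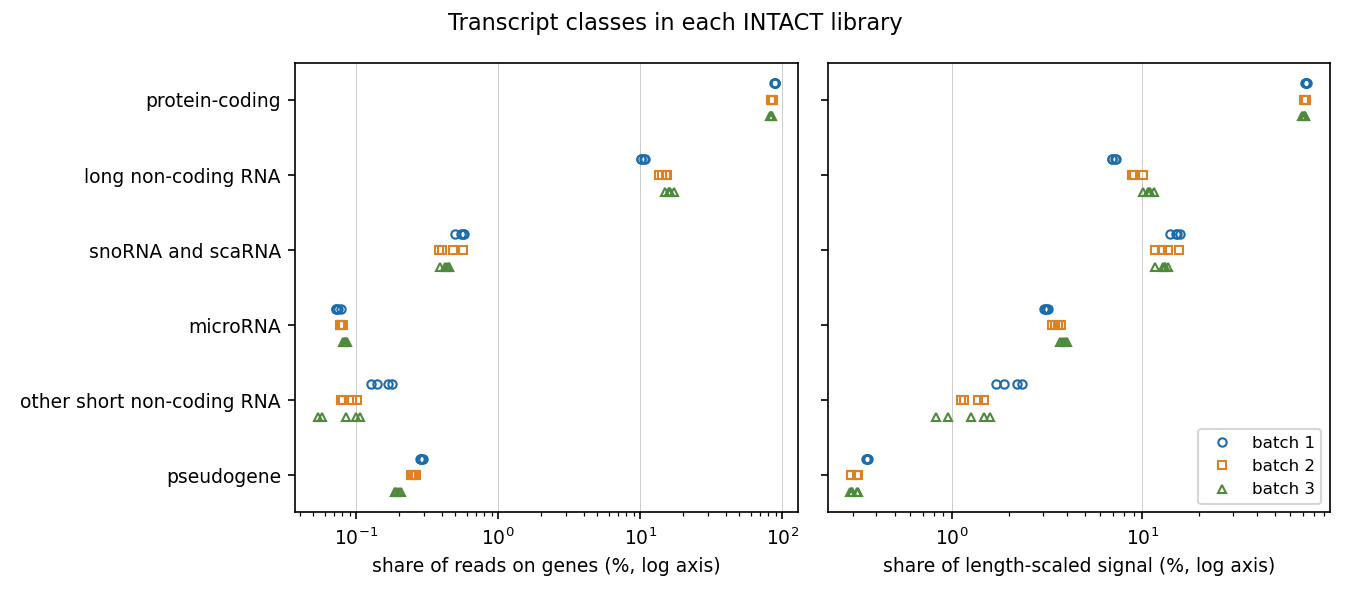
Share of the signal (%, horizontal log axes) held by each transcript class in each library, as reads on ranked genes on the left and as length-scaled signal on the right; each symbol is 1 library, coloured by batch. SnoRNAs and scaRNAs lie at 0.385 to 0.572% of reads but at 11.7 to 15.8% of length-scaled signal, and long non-coding RNAs lie lower in batch 1 (10.1 to 10.7% of reads) than in batches 2 and 3.

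The classes also differed in the share of their genes that was detected. A mean normalised count of at least 5 was reached by 67.5%, 66.5% and 64.8% of 19597 protein-coding genes, by 42.6%, 42.4% and 40.6% of the long non-coding RNAs and by 30.7%, 30.1% and 31.6% of 326 pseudogenes. It was reached by 83.9%, 83.1% and 77.4% of the snoRNAs and scaRNAs and by 15.2%, 16.2% and 16.2% of 1093 microRNA genes. Protein-coding genes made up 88, 90 and 91 of the 100 highest genes by count, and 47, 49 and 48 of the 100 highest by length-scaled value, where snoRNAs and scaRNAs took 34, 32 and 30 places.

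Among genes of at least 200 exon bases, Malat1 also led the length-scaled order, at 29496, 48148 and 54801 ppm. The next places went to short structured RNAs and to long non-coding RNAs. Rmrp, whose RNA is part of the enzyme that cuts the ribosomal RNA precursor, had normalised counts of 7038, 9052, 9664 and 7944 in batch 1, 3427, 4501, 3473 and 4399.66 in batch 2, and 3786, 4071, 1976, 1908 and 3196.52 in batch 3. Scarna13 had 7518, 7606, 8290.04 and 7130.48 in batch 1, 4490.11, 4545, 3241 and 3455 in batch 2, and 4042, 4012, 2912, 2871 and 3600.4 in batch 3. In both genes all libraries of batch 1 stood above all those of the other batches, and the libraries of batches 2 and 3 overlapped. The batches were normalised separately, so an order of batches by count need not hold on the length-scaled value. The counts of Snhg11, for example, were lower in batch 3 than in batch 1, while its length-scaled value was higher. Snord17, with 2759, 2316, 3702 and 3319 in batch 1, 5840.1, 3561, 2254 and 2390.12 in batch 2, and 2360.34, 2387, 2368, 2329 and 2912 in batch 3, had batches that overlapped.

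Then came Snhg11 at 7013, 7812 and 8414 ppm, Meg3 at 3474, 5675 and 6615, Rian at 3425, 2479 and 2552, and Ipw, an imprinted non-coding RNA of the Prader-Willi region, at 2821, 5360 and 7270. The first 10 of each batch were completed by Rsrp1, a gene of an arginine- and serine-rich protein, at 2805, 2371 and 1980 ppm, and by Gas5, a snoRNA host, at 2544, 1848 and 1623, except that R3hdm1 at 2241 ppm took the place of Gas5 in batch 3. Ipw shares its exons or introns with other transcripts of its locus, so its share of their reads is uncertain. Genes of splicing followed, with Luc7l3, a partner of the U1 particle, at 1156, 1405 and 1315 ppm and Srsf5 at 1082, 1302 and 1087. Neuronal genes also stood among the first 30, with Snap25, a protein of synaptic vesicle fusion, at 1119, 1335 and 1427 ppm and Syt1, the calcium sensor of the vesicle, at 991, 1378 and 1126.

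Of the genes under 200 exon bases, Snord15b had the highest length-scaled value in each batch, at 49353 ± 5718, 48719 ± 6783 and 49134 ± 1599 ppm. This was above the mean of Malat1 in batch 1, above it by less than the SD in batch 2 and below it in batch 3. Its normalised counts were 15747, 13769, 12901 and 11902 in batch 1, 13817.5, 11489, 10516 and 9679 in batch 2, and 9278, 8733, 8881, 9153 and 9669.74 in batch 3. It was also the sole snoRNA among the 15 highest by count, at ranks 11, 12 and 13. Its neighbour Snord15a, which lies in the same host and has the sequence shown above, had a mean count of 913 ± 144, 631 ± 227 and 431 ± 17.4, and the libraries of these 2 genes did not overlap in any batch. AF357359, the shortest of the set, had 982 ± 47.4, 625 ± 69.5 and 481 ± 51.3. Its length-scaled value of 17250, 12981 and 12485 ppm rests on 30 annotated bases within Rian, whose own transcript was also abundant.

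Most microRNA genes had few or no reads, and a minority stood high per exon length. Mir128-1 (within R3hdm1) and Mir3064 (within Ddx5, an RNA helicase) were the highest annotated hairpins of the list, and their mature sequences are printed with the seed, bases 2 to 8, in capitals. No seed is shared among them.
mmu-miR-128-1-5p: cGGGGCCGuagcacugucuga
mmu-miR-128-3p: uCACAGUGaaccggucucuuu
mmu-miR-3064-5p: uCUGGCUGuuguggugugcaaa
mmu-miR-3064-3p: uGCCACACugcaacaccuuaca

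Mir128-1 had mean normalised counts of 202 ± 10.6, 184 ± 9.07 and 170 ± 27.9, and Mir3064 had 388 ± 63.6, 332 ± 32.3 and 214 ± 25.9. A read on a hairpin may come from the host transcript, so these values do not measure the mature microRNA. Over 1088 symbols of microRNA genes the median length-scaled value of the batch means was 2.17, 2.26 and 2.27 ppm, below the median of all genes, which was 8.17, 8.41 and 8.10. Of these, 71, 92 and 106 stood in the highest 10% of all genes. Those are shares of 6.53%, 8.46% and 9.74%, below the 10% of all genes. MicroRNA genes took 7, 7 and 9 of the 100 highest places by length-scaled value. The class held 3.12% ± 0.0626, 3.54% ± 0.159 and 3.89% ± 0.132 of the length-scaled signal. The host gene of a brain microRNA, Mir124a-1hg, which the symbol rule also caught and which is annotated as a long non-coding RNA, had 823, 985 and 908 ppm.

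The small RNA lists ranked as follows on the length-scaled value. Of 106 snoRNAs named by symbol, 77, 74 and 69 stood in the highest 10% of all genes, with a median of 212, 177 and 158 ppm. Of 9 scaRNAs, 8, 7 and 7 did, with a median of 501, 208 and 297. Of 11 small nuclear and other structured RNAs only 4 did in each batch, among them Rmrp, Rpph1 (the RNA of ribonuclease P, at 1352, 1124 and 931 ppm) and Rnu12 (the U12 RNA of the minor spliceosome, at 2588, 2474 and 2563), and the median of the list was 12.4, 8.24 and 3.61. Of 16 snoRNA host genes, 11, 8 and 7 did, with a median of 124, 94.5 and 73.8. SnoRNA genes and hosts share their locus, and reads of an unspliced host could not be told apart from those of the snoRNA.

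A larger share of long than of short coding genes stood among the highest genes. Of the 6723 protein-coding genes that span under 10 kb from start to end, 5.74%, 4.77% and 3.75% stood in the highest 10% of all genes by length-scaled value. Of the 531 genes that span over 300 kb, 22.6%, 25.2% and 30.7% did. The share rose with each class of span in every batch, through 9.55% to 18.9% in batch 1 for the classes in between. The rise was steepest in batch 3 and least steep in batch 1. These shares include genes with few or no reads. A mean count of at least 5 was reached by 45.8%, 44.8% and 43.0% of the genes under 10 kb and by 94.2%, 94.2% and 92.5% of those over 300 kb. Among genes with that count the median was 26.4, 24.6 and 24.1 ppm under 10 kb and 43.7, 49.5 and 57.1 over 300 kb. This median did not rise with each class in batches 1 and 2, with 36.2 and 38.1 at 30 to 100 kb and 35.1 and 37.1 at 100 to 300 kb. Genes over 300 kb held 8.46% ± 0.139, 8.54% ± 0.318 and 9.30% ± 0.123 of the reads on ranked genes, and genes under 10 kb held 8.58% ± 0.107, 7.49% ± 0.168 and 6.40% ± 0.169. An example of a long gene is Ptprd, a receptor phosphatase of the synapse that spans 2270506 bases, at 697, 700.0 and 668 ppm. Of 20 neurexins, neuroligins and partners, 9, 11 and 10 stood in the highest 10%, with a median of 78.5, 109 and 107 ppm.

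The label of neuronal nuclei was compared with lists of cell type genes on the length-scaled value. In bulk samples fewer cells of a type and less RNA per cell cannot be told apart. All 12 pan-neuronal genes had a mean count of at least 5, and 8, 10 and 10 of them stood in the highest 10% of genes, with a median of 150, 144 and 170 ppm. Snap25 and Syt1 led the list, followed by Thy1, a surface protein of projection neurons, at 398, 504 and 352, and the lowest was Tubb3, a neuronal tubulin, at 52.9, 46.6 and 43.2. Rbfox3, which encodes the NeuN antigen, had 105, 140 and 171 ppm. Neuronal genes were thus high in all 3 batches. No unsorted nuclei were set beside them, so these values do not show an enrichment of neurons. Genes of mature oligodendrocytes, described below, reached a median of 106 ppm in batch 2.

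Genes of excitatory neurons were as high. Of 10, 8, 8 and 9 stood in the highest 10%, with a median of 207, 194 and 175 ppm. Slc17a7, the vesicular glutamate transporter VGLUT1, had 442, 526 and 393, Nrgn, a calmodulin-binding protein of dendritic spines, had 495, 534 and 575, and Camk2a, a calcium-dependent kinase of the postsynaptic density, had 312, 395 and 445. The transcription factor Emx1 was the lowest at 26.1, 26.8 and 44.3. Genes that mark layers were all present, with a median of 58.4, 52.2 and 65.1 ppm over 10 genes. Cux2 of the upper layers had 75.1, 83.7 and 88.8, Rorb of the middle layer had 49.6, 44.9 and 77.1, and the deep layer genes Fezf2 and Tle4 had 83.6, 74.3 and 53.1 and 67.2, 59.4 and 84.9. Other deep layer genes of the list stood lower in each batch. Bcl11b had 20.3, 24.7 and 24.3, Foxp2 had 25.6, 18.6 and 30.3, Etv1 had 25.5, 26.8 and 21.9, and Hs3st4 had 20.7, 26.4 and 34.5.

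Genes of inhibitory neurons were low but present. None of 12 stood in the highest 10%, and the median was 10.9, 10.0 and 7.22 ppm, near the median of all genes. Gad1, which makes GABA, had 17.0, 25.1 and 11.7 ppm, and Slc32a1, the vesicular GABA transporter, had 6.41, 7.98 and 3.52. The neuropeptide gene Sst was the highest of the list with 54.4, 85.7 and 25.0, and Lhx6, a transcription factor of interneurons, the lowest on mean rank with 0.698, 1.06 and 0.872. The sum over the excitatory list was 12.1 ± 1.23 (SD, n = 4), 10.5 ± 1.27 (n = 4) and 22.7 ± 3.96 (n = 5) times the sum over the inhibitory list, with 10.6 to 13.2, 9.35 to 11.9 and 18.9 to 28.7 in single libraries. The libraries of batch 3 lay above those of the other batches, which overlapped. With the median of the members in place of the sum, the ratio was 20.7, 19.3 and 23.5, so the distance of batch 3 from the others was smaller.

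**Figure D3:**
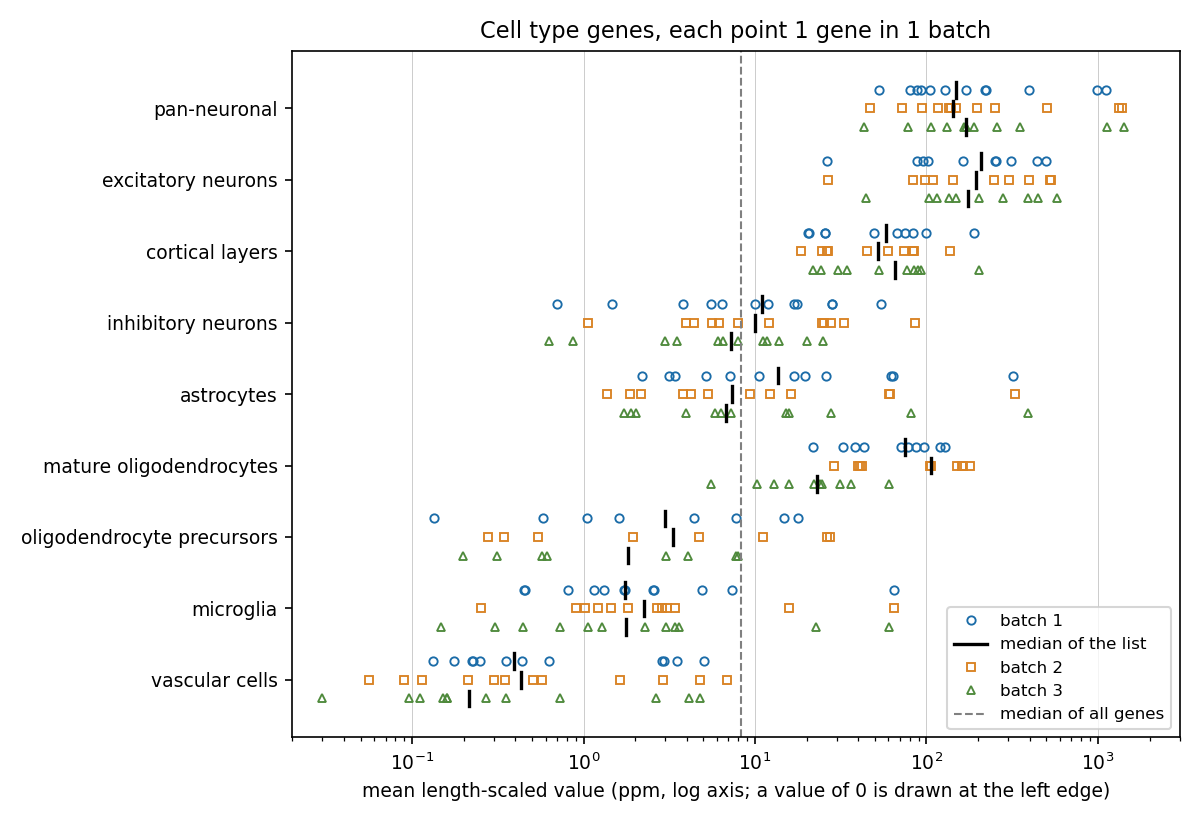
Mean length-scaled value (ppm, horizontal log axis) of each gene of 9 cell type lists, 1 symbol per gene and batch, with black bars for the median of the list in that batch and a dashed line for the median of all genes. Pan-neuronal and excitatory medians lie at 144 to 207 ppm, vascular medians at 0.214 to 0.429, and the oligodendrocyte median of batch 3 (23.0) lies left of those of batches 1 and 2 (74.6 and 106).

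By the median of the list, oligodendrocyte genes were the highest of the glial and vascular lists and differed most between batches. Over 10 autosomal genes of mature oligodendrocytes the median was 74.6, 106 and 23.0 ppm, and 3, 6 and 0 of them stood in the highest 10%. Mag, an adhesion protein of myelin, had normalised counts of 616, 629, 631 and 589.63 in batch 1, 695, 726, 614 and 596 in batch 2, and 131, 122, 149, 104 and 126 in batch 3. Mbp, the myelin basic protein, had 128, 179 and 60.4 ppm and Cldn11, the tight junction protein of myelin, had 96.7, 164 and 24.5. For each of the 10 genes the mean of batch 3 was the lowest of the 3 batches. The sum over the list was 682 to 739 ppm in batch 1, 946 to 1097 in batch 2 and 214 to 269 in batch 3, and its defining genes were at 0 in no batch. The sum over the astrocyte list was 541 ± 6.59, 507 ± 43.0 and 559 ± 23.2 ppm, of which the single gene Slc1a2 gave 321, 329 and 391, while the median of the astrocyte list was below that of the oligodendrocyte list in each batch. The 8 genes of oligodendrocyte precursors had a median of 3.00, 3.31 and 1.81 ppm, led by Sox10 and Olig1, which mature cells also express.

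Astrocyte genes had a median of 13.7, 7.34 and 6.81 ppm over 12 genes. Slc1a2, the glutamate transporter GLT-1, was the sole gene of this list in the highest 10%, with 321, 329 and 391 ppm. Slc4a4, a bicarbonate transporter, had 63.5, 60.2 and 80.8 and Apoe, the apolipoprotein E gene, had 62.4, 61.5 and 27.6, while Gfap, Aqp4 and Gjb6 had 2.18, 1.86 and 2.03, 3.42, 2.16 and 1.90, and 3.16, 1.37 and 1.73. Microglial genes had a median of 1.74, 2.25 and 1.78, with the purine receptor P2ry12 at 7.33, 15.8 and 22.8, Aif1 at 4.92, 3.41 and 3.42 and Itgam, an integrin, at 0.451, 0.254 and 0.305. Vascular genes had the lowest median, 0.395, 0.429 and 0.214. The highest of them on mean rank were Tek, an endothelial receptor kinase, at 3.52, 6.86 and 4.77, Acta2, the actin of smooth muscle, at 5.06, 4.79 and 4.14, and Pdgfrb, a receptor of pericytes, at 2.93, 2.92 and 2.65, with Cdh5 and Cldn5 of the endothelium at 0.132, 0.0893 and 0.159 and at 0.355, 0.114 and 0.112. The glial and vascular lists together held 17.3% ± 0.357, 18.2% ± 0.458 and 11.2% ± 0.156 of the length-scaled signal summed over all cell type lists. With no division by exon length the share was 23.4%, 23.1% and 19.3%, and with the median of each list it was 18.0%, 22.7% and 7.25%. These shares depend on which genes the lists hold and are not shares of nuclei.

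Immediate early genes were expressed in all batches, days after the social interaction test. Arc (chr15:74669081-74672570, minus strand) had normalised counts of 1722, 1629.91, 1662 and 1747 in batch 1, 1236, 1309, 1235 and 1326.5 in batch 2, and 284, 229, 293, 249 and 268 in batch 3. On the length-scaled value Arc stood at rank 238, 302 and 3317 among genes of at least 200 exon bases, and no library of batch 3 came near those of the other batches. The 16 genes of the list had a median of 40.8, 36.9 and 13.1 ppm, and 3, 3 and 0 stood in the highest 10%. Nr4a1, a nuclear receptor, had 208, 178 and 83.1, Egr1, a zinc finger transcription factor, had 122, 121 and 73.3, and Fos had 35.7, 29.8 and 4.30. Each of the 16 genes had its lowest batch mean in batch 3. The sums over the lists of mature oligodendrocytes, their precursors, inhibitory neurons and vascular cells were also lowest in this batch. The part of any of these lists in the result was not tested. Sun1, the protein part of the tag, had 281, 283 and 246 ppm, and reads of the transgene could not be told apart from those of the gene itself.

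Receptors and channels of neurons were well represented. Of 25 glutamate receptor genes, 24, 24 and 23 had a mean count of at least 5 and 9, 10 and 10 stood in the highest 10%, with a median of 48.2, 57.1 and 68.4 ppm. Gria2 led at 915, 1102 and 1193, Grin1, the obligatory subunit of the NMDA receptor, had 356, 424 and 417, and Grm6, a receptor of the retina, had 0.113, 0.155 and 0.294. Of 18 GABA receptor genes on the autosomes, 8 stood in the highest 10% in each batch, with a median of 52.3, 66.8 and 68.0 ppm. Among 129 genes of voltage-gated and potassium channels the median was 30.2, 32.1 and 31.3. The highest of these on mean rank was Cacna2d1, an auxiliary subunit of calcium channels and a target of gabapentin, at 425, 467 and 434.

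Genes of splicing, translation and respiration stood above the median gene in each batch. Of 64 splicing factors and hnRNPs, 23, 24 and 24 stood in the highest 10%, with a median of 62.7, 61.9 and 63.6 ppm. Srsf5, Srsf11 and Hnrnph1 led, with 1082, 1302 and 1087, 786, 715 and 778, and 616, 672 and 621. Of 81 cytosolic ribosomal protein genes, 27, 15 and 6 stood in the highest 10%, with a median of 68.8, 55.6 and 49.4 ppm, and of 79 nuclear genes of oxidative phosphorylation, 32, 28 and 26 did, with a median of 72.3, 67.6 and 63.2. Rpl41 had 241, 175 and 139 ppm and Atp5b, a subunit of the ATP synthase, had 243, 210 and 193. The share of reads on the ribosomal protein genes was 0.152% ± 0.00435, 0.117% ± 0.00340 and 0.101% ± 0.00642, and the libraries of the 3 batches did not overlap. Ndufs5, which every respiring cell uses, is listed at 0 in all 13 libraries, so a 0 in these tables need not mean that a gene is silent.

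Most zinc finger genes were detected, and few of them or of the antisense transcripts stood among the highest genes. Of 352 Zfp genes, 338, 335 and 332 had a mean count of at least 5, and 22, 17 and 26 stood in the highest 10%, with a median of 25.4, 22.1 and 23.8 ppm and with Zfp445, a regulator of imprinting, highest on mean rank at 347, 395 and 442. Of 171 symbols that end as those of opposite-strand transcripts do, 102 had a mean count of at least 5 in batches 1 and 2, and 6, 6 and 8 stood in the highest 10% in batches 1, 2 and 3, with a median of 5.80, 6.28 and 6.30. Among them, Dos is a coding gene that the symbol rule caught by its spelling, and Sorbs2os, at 163, 223 and 279 ppm, lies on the other strand of Sorbs2. Of 67 replication-dependent histone genes, 39, 31 and 30 had a mean count of at least 5, with a median of 6.93, 3.76 and 5.34 ppm.

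Of the 17 nuclear long non-coding RNAs, 8, 9 and 9 stood in the highest 10%, with a median of 70.8, 105 and 93.4 ppm. Besides the leading genes, Miat had 533, 684 and 722, Tug1 had 118, 105 and 93.4, and Neat1, the scaffold of the paraspeckles, had 28.9, 51.3 and 16.3. Dlx6os1, a transcript of the interneuron Dlx5 and Dlx6 locus, was the lowest with 4.52, 9.34 and 2.76. Neat1, Dlx6os1 and Sox2ot, the last at 46.9, 73.0 and 20.6, had their highest mean in batch 2 and their lowest in batch 3. The sums over the lists of mature oligodendrocytes, their precursors, inhibitory neurons and vascular cells had the same order. For inhibitory neurons the sum was 185, 237 and 110 ppm. The part of any of these lists in the values was not tested.

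Ranks were stable over the 3 batches. Over 13668 genes with a mean count of at least 5 in each batch, Spearman's rho of the mean counts was 0.990 between batches 1 and 2, 0.977 between batches 1 and 3 and 0.986 between batches 2 and 3. These are correlations across genes, which are not independent replicates, and they share gene length, base composition and mappability. Pairs of libraries within a batch had 0.988 to 0.996, and pairs from different batches had 0.968 to 0.987. Of the 100 highest genes by count, 79 were shared by all 3 batches and 73 by all 13 libraries. Of the 10, 500 and 1000 highest, 9, 415 and 866 were shared by the batches.

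On the length-scaled value, 75 of the 100 highest genes of at least 200 exon bases were shared by all 3 batches. The 500 highest of any batch made up 618 genes. The ratio of the worst to the best rank of these genes over the batches had a median of 1.56, and was 2 or more for 139 of them (22.5%). The 8 genes with the largest ratios fell into a few kinds. Ptgds, Trf and Arc are coding genes, of which Ptgds, a prostaglandin synthase, and Trf, transferrin, are known from oligodendrocytes and other non-neuronal cells, and both were lowest in batch 3, with 247, 376 and 84.9 ppm for Ptgds and 180, 258 and 58.0 for Trf.

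A further 3 were pseudogenes with near copies elsewhere in the genome. Pisd-ps1 had normalised counts of 5697, 5991, 5704 and 5727 in batch 1, 1161, 993.96, 1215 and 1173 in batch 2, and 2314, 2159, 2529.52, 2257 and 2630.28 in batch 3, at ranks 19, 351 and 44. Pisd-ps2 stood at ranks 154, 2246 and 440, in the same order of batches. Tmem181b-ps had 6516, 6955, 6742 and 7084 in batch 1, 8489, 8113, 8947 and 9136 in batch 2, and 1755, 1661, 1795, 1679 and 1907 in batch 3. The libraries of a batch lay close together in these genes and those of different batches did not overlap. How the counting split reads between near-identical copies bears on these values and was not tested.

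The remaining genes were non-coding transcripts that overlap another gene. 5031426D15Rik, within Celf2 on the same strand, had 777, 802, 649 and 765 in batch 1, 1985, 2157, 2247 and 1913 in batch 2, and 2503, 2356, 2745, 2975 and 2609.99 in batch 3, and moved from rank 3549 to 456 and 173. Nrg3os, on the other strand of Nrg3, moved from rank 3613 to 602 and 245. In both, as in Kcnq1ot1, the order of the batches was that of the share of reads outside exons, and whether reads of the unspliced partner gene enter these counts was not tested.

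**Figure D4:**
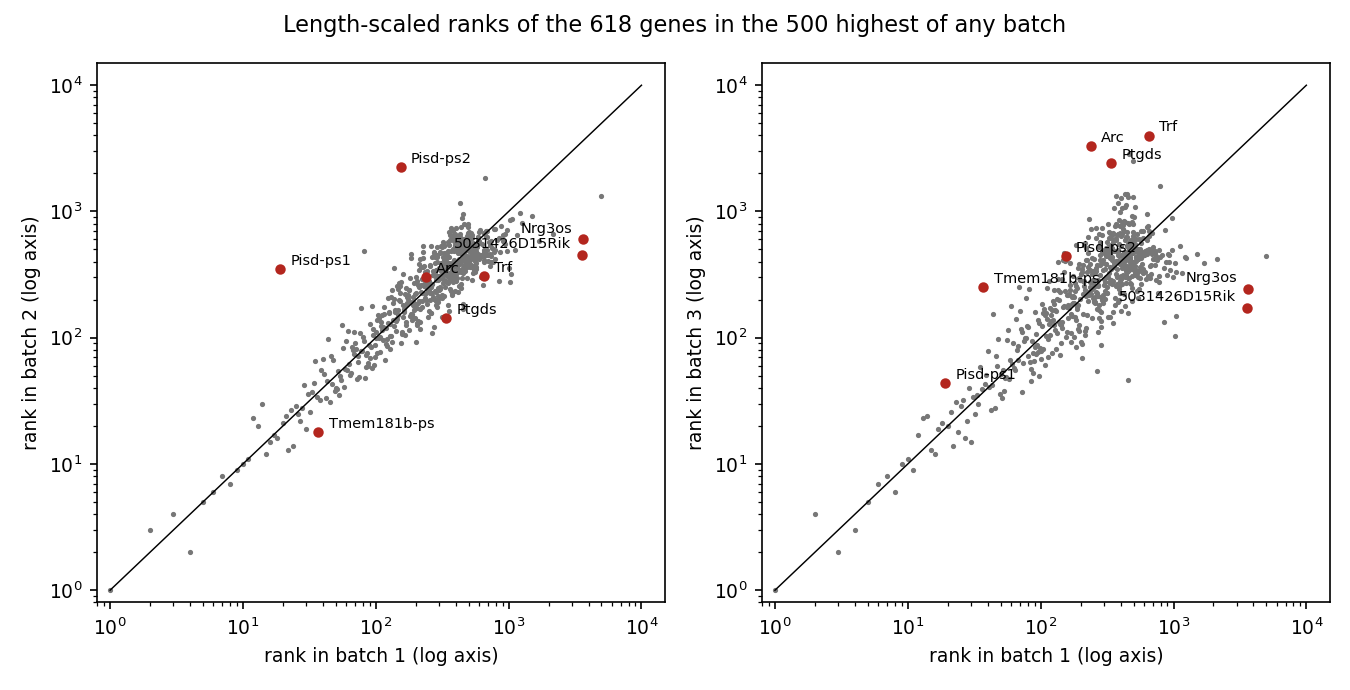
Length-scaled rank in batch 1 (horizontal log axis) against the rank in batch 2 (left) and batch 3 (right, vertical log axes) for the 618 genes in the 500 highest of any batch; each point is 1 gene, the line marks equal ranks, and red points are the 8 genes with the largest ratio of worst to best rank. Most genes lie along the line (median ratio 1.56), and Arc, Trf and Ptgds lie above it in batch 3 with ranks of 3317, 3989 and 2432.

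Open chromatin gave a readout that the ranks did not use. The ATAC-seq of INTACT nuclei, which marks accessible DNA, came as 3 peak lists of 113224, 99514 and 123895 peaks, made from libraries of their own. The authors describe these as technical replicates of 1 biological source, so a peak in all 3 lists was not repeated in another source. A peak within 1 kb of a start site in all 3 lists was found for 13420 of the 23164 genes (57.9%), and for 95, 94 and 95 of the 100 highest genes by count. The leading genes without a peak in any list were Rian, Snord15b, Ipw and Tmem181b-ps in 1 or more batches.

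By level, 3.97% of protein-coding genes with no read in batch 1 had a peak in all 3 lists. The share was 16.6% in decile 1 of the genes with a read, 89.3% in decile 5 and 97.5% in decile 10, the highest. In batches 2 and 3 decile 1 had 19.7% in each case and decile 10 had 97.1% and 97.2%. Long non-coding RNAs levelled off lower, at 72.7%, 64.7% and 63.8% in decile 10. In this class the highest share fell in decile 8 in batch 1 and in decile 7 in batches 2 and 3.

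**Figure D5:**
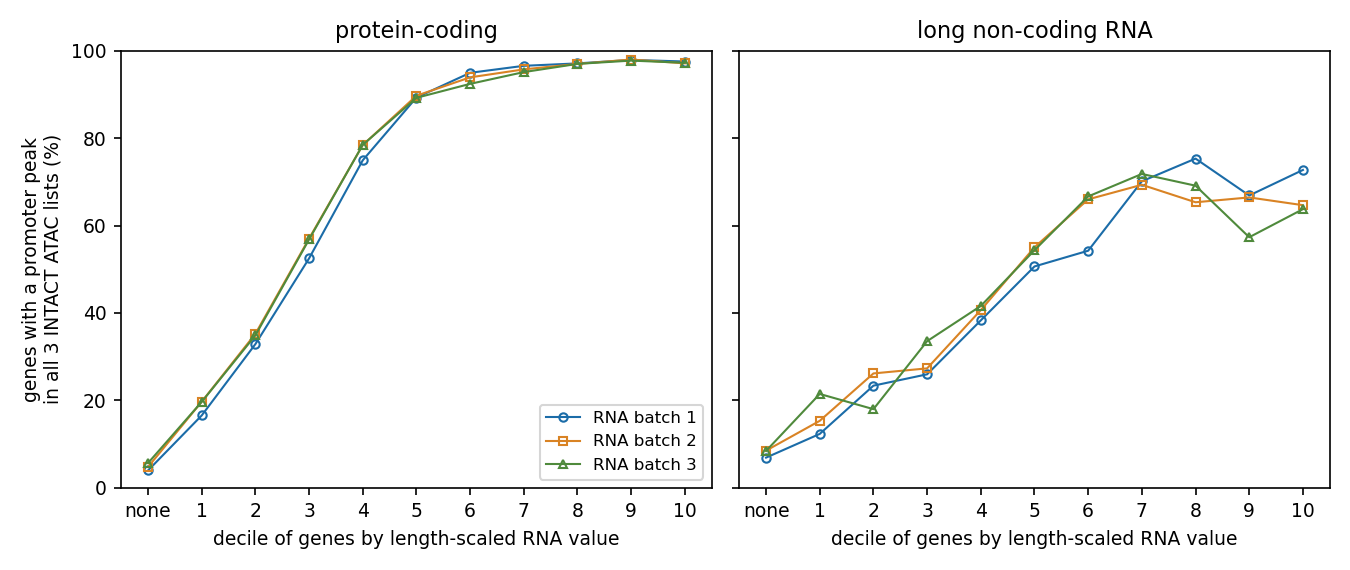
Share of genes (vertical axis, %) with an ATAC peak within 1 kb of a start site in all 3 INTACT lists, for genes with no read and for the deciles of genes by length-scaled RNA value (horizontal axis), with protein-coding genes on the left, long non-coding RNAs on the right and 1 line per RNA batch. The line climbs from 3.97% to 97.5% in batch 1 for protein-coding genes and ends at 63.8 to 72.7% for long non-coding RNAs.

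The promoters of the first 2 genes are shown because their peaks lay differently. The windows run from 250 bases before to 50 bases after the start site on the strand of the gene (Malat1 at chr19:5802623-5802922, minus strand, and Meg3 at chr12:109540746-109541045, plus strand). Capitals mark matches to the motifs TGACG (the core of a cAMP response element), CCAAT (the CCAAT box) and TATAAA (the TATA box), each searched on both strands.
Malat1 promoter: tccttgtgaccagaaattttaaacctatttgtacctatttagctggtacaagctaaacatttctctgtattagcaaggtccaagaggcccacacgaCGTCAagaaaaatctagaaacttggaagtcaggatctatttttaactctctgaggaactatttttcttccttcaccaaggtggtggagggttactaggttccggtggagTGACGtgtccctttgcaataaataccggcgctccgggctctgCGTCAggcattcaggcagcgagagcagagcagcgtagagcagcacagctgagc
Meg3 promoter: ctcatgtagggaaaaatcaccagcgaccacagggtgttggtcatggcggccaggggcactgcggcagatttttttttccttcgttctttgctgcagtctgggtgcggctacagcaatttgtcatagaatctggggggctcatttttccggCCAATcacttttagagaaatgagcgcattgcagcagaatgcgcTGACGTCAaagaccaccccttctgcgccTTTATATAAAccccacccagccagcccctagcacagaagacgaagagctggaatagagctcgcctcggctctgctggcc

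No peak of any list lay over the Malat1 window. Its nearest peaks had their summits at −868, −1034 and −964 bases from the start, which is upstream, with −log10 q-values of 28.3, 25.2 and 35.3. The Malat1 window held TGACG 3 times, at −45 from the start on the printed strand and at −154 and −3 on the other strand, and neither CCAAT nor TATAAA. The Meg3 window lay under a peak in lists 1 and 3, with −log10 q-values of 8.69 and 5.81 and summits at −154 and −149, and under none in list 2. It held TGACG on either strand at overlapping places, CCAAT at −100 and TATAAA on either strand at overlapping places, the nearest at −25. Over 32851 promoter windows of this length, 20.8% held TGACG, 37.4% CCAAT and 13.6% TATAAA on either strand. A match of these letters is not a binding site, and the peaks say nothing of which factor binds.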

How the data were processed

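Nuclear RNA-seq of INTACT nuclei was taken from 3 tables, 1 per batch. The authors used STAR with mm10 for alignment, molecular identifiers against duplicates, HTSeq for counting and DESeq for scaling. The deposited signal of a gene is therefore its count over the size factor of that library, and gene length plays no part in it. The value of a single read in each library was recovered from the spacing of the smallest values, after which 100% of entries were whole within a tolerance of 0.1. The setting for strand is not given in the sources used here. The precision is set by 4944980 to 11028713 reads on genes per library. A further INTACT library of batch 2 was not analysed here. For the ATAC-seq, the deposited peak lists give a −log10 q-value per peak as the authors' MACS2 wrote it, called per library, and read depth is unknown for them. The lists also hold a score, a fold enrichment and a −log10 p-value of each peak, which the authors deposited and which were not used.

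Of 24421 genes, 23178 were matched to RefSeq GRCm38.p6 by symbol, 1096 by an older symbol and 147 not at all. The 1062 genes on X and 48 on Y and the 5 summary rows were left out. Values were divided by the union of exons of curated transcripts and scaled to a total of 1000000 ppm per library. Ranks per length used the 21933 genes of at least 200 exon bases, and rank correlations used genes with a mean of at least 5. A promoter peak lay within 1 kb of a start site. No 2 libraries of the same batch were duplicates, since the chi-square of their counts per gene was 1.75 to 5.10 over the 22 pairs within batches. No test was run, because a single group has no contrast. The ranking code was tested on simulated data.

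Genes were named by rule, being the 15 highest counts and the 15 highest length-scaled values of each batch, the 5 highest under 200 exon bases, the 3 highest members and the lowest of each list, Arc and Sun1, and the 8 largest rank ratios among the 500 highest of any batch. Other members of the cell type, immediate early gene and long non-coding RNA lists are given as further examples, chosen for their known roles. A few of the genes so chosen are not reported here. The members and lists were chosen with earlier results of these data known. Alternatives changed the scaling, exon length, low-value filter, class source, list summary and leading gene, and left out each library in turn. The work used Python 3.11.15, numpy 2.4.6, pandas 2.3.3, scipy 1.17.1 and matplotlib 3.10.9.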

Additional observations from a re-analysis of the deposited data

Results flagged for a closer look

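Of 502 values with 4 or 5 libraries in a batch, 28 (5.58%) had a library that lay far from the others of its batch, and chance flags about 1 in 20 groups. The share of reads on excitatory neuron genes in batch 1 was 0.244% in 1 library against 0.234% to 0.235% in the others, and that on pan-neuronal genes 0.413% against 0.402% to 0.404%. The share on genes of oxidative phosphorylation in batch 1 was 0.183% against 0.193% to 0.195%, and that on vascular genes 0.00202% against 0.00170% to 0.00174%. Coding genes that span under 10 kb held 8.42% against 8.63% to 8.64% in batch 1 and 6.11% against 6.44% to 6.54% in batch 3.

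The other values are normalised counts of single genes. In batch 1 the library that stood apart was at 3581 for Ipw (the others 4025 to 4063), 13.2 for Lhx6 (1.53 to 3.46), 25.2 for P2ry12 (38.1 to 40.5), 587 for Rpl4 (487 to 503), 275 for Rpl12 (206 to 214), 3681 for Srsf5 (3274 to 3337), 2.29 for Snhg18 (0.66 to 0.87), 5991 for Pisd-ps1 (5697 to 5727) and 129 for Nrg3os (106 to 109.73). In batch 2 it was at 7899.6 for Ahi1 (7283 to 7358), 2.29 for Cdh5 (0 in the others) and 79.0 for Hist2h2bb (60.5 to 63.5).

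In batch 3 it was at 2912 for Snord17 (2329 to 2387), 20852 for Kcnq1ot1 (17586 to 17808), 259.77 for Reln (305 to 319.65), 19.1 for Tek (29.8 to 33.5), 22.6 for Dlx6os1 (13.2 to 15.4), 104 for Rpl41 (69.2 to 79.0), 5.15 for Grm6 (0 to 1.03), 1.01 for Kcnj1 (0 in the others), 121 for Mir128-1 (176 to 193) and 1352 for Sun1 (1281 to 1298). Values of Cdh5, Kcnj1, Grm6, Snhg18 and Lhx6 rest on few reads. Without the library concerned, Kcnq1ot1 kept a higher count in batch 3 than in batch 2 in every library.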

How the results depend on the processing

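No paired analysis was possible because only INTACT libraries were described and no test was made. Leaving out each library in turn gave 104 values. All lay within 1 SD of the reported value or, for counts of shared genes, within 1.5 times. For the shares and ratios this had to be so, because leaving out a library cannot move the mean of the libraries by their SD. Their place within the limit therefore says nothing about their stability. The rank correlations were set against the SD of pairs of libraries, to which this does not apply. The count of shared genes was 78 or 79, for which 1.5 times is a wide limit. Of the other alternatives, 16 values stayed within these limits of 1 SD or 1.5 times and 31 moved, given here for batches 1, 2 and 3. The 100 highest genes held 15.8%, 16.5% and 17.5% without Malat1, and 25.3%, 26.2% and 27.4% with Rn45s, a choice made after seeing the data. Non-coding genes held 10.3%, 14.2% and 15.5% of reads with classes from symbol rules, 5.59%, 6.69% and 7.35% without Malat1 and 16.5%, 17.7% and 18.7% with Rn45s, and 13.1%, 14.6% and 16.1% of length-scaled signal without genes under 200 exon bases. With the median of the members in place of the sum, the excitatory to inhibitory ratio was 20.7 and 19.3 in batches 1 and 2. The glial and vascular share was 23.4%, 23.1% and 19.3% with no division by exon length, and 18.0%, 22.7% and 7.25% with the median. Rank correlations were 0.989 (batches 1 and 2) and 0.985 (batches 1 and 3) with no filter, and 0.985, 0.967 and 0.981 (batches 2 and 3) on length-scaled values. With the median of the members, batch 3 stood apart less in the ratio of excitatory to inhibitory genes, at 23.5. The depth limits statements on genes of few reads, such as those of vascular cells, and the values of genes shorter than 200 bases, of genes within introns and of near-identical copies depend on how reads were assigned; the cause of the differences above, where the alternative's own construction does not show it, was not tested.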

Other observations

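Genes of sensory and epithelial families, which the lists above did not hold and which were chosen after their values were seen, were mostly without reads. Of 23164 autosomal genes, 3559 (15.4%) had no read in any of the 13 libraries and a further 2774 had 1 to 10 reads in all. Of 1111 olfactory receptor genes, 852 (76.7%) had none, and of 332 vomeronasal receptor genes, 253 (76.2%) had none. Of 54 defensin genes, 36 (66.7%) had none and the other 18 had 10 or fewer. Keratins stood lower, with 25 of 51 (49.0%) at 0.

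Within these families the reads lay on few genes. Olfr78 held 1619 of the 5434 reads of the olfactory receptors over all 13 libraries, Vmn2r87 held 2555 of the 9586 reads of the vomeronasal receptors, and Krt12, a keratin best known from the cornea, held 4728 of the 12426 reads of the keratins. A read on an exon may belong to an overlapping transcript, and whether it does for these 3 genes was not tested.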
